A study of Mus musculus with 4 samples.

Results

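The genes described here make small structural RNAs of splicing and ribosome production: Rnu1a1, Rnu1b1, Rnu1b2 and Rnu1b6 (U1), Rnu3b1, Rnu3b2 and Rnu3b3 (U3), Rnu5g (U5), Rn5s (5S) and Rmrp. They are 10 genes out of 30702 named genes on the array, and all 10 lay above a floor on low values (a mean log2 level of 5.235, the median over all features of the array), which kept 17208 genes. They are a list of structural small RNA genes found by symbol in the platform's gene table, and the list was made with their levels on these arrays already known. Their levels and differences are therefore a description and carry no test.

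Mouse bone marrow was measured on 4 Affymetrix arrays, 1 for each group: cisplatin (a platinum drug that crosslinks DNA), treatment with Astragalus membranaceus (a medicinal root, called astragalus here), treatment with electro-acupuncture, and control. In all groups tibial marrow was collected after 2 weeks of treatment, and 6 ug of Trizol-extracted total RNA served to make biotin-labelled cRNA. The design text says that marrow samples (n = 6) were mixed, which was read as pooling within each group. The sources used here give no dose, strain, sex or age, and it is not stated there if mice treated with astragalus or electro-acupuncture also received cisplatin. Both are therefore set against the cisplatin and the control array. With 1 array per group no difference has a replicate check, and precision is limited by the number of arrays.

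U1 is the RNA of the particle that recognises the upstream splice site of an intron, and U5 is the RNA that holds the exons at the core of the spliceosome. U3 is a nucleolar RNA needed for the first cuts of the precursor of ribosomal RNA, 5S is an RNA of the large ribosomal subunit, and Rmrp is the RNA of RNase MRP, an enzyme that also cuts that precursor. In mammals U1, U3 and U5 are made by RNA polymerase II with the SNAPc factor, and 5S and Rmrp by RNA polymerase III. All of them work as RNAs and are held in stable particles with proteins, and growing cells of the marrow need them for splicing and for making ribosomes.

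Levels are log2 values of transcript clusters, the features by which the array reports genes and transcripts. For a gene with more than 1 cluster of its own, the cluster with the highest mean over the 4 arrays was used. Copies with near-identical sequence are not separated: Rnu1b1 and Rnu1b2 had equal values on every array, as did Rnu3b1, Rnu3b2 and Rnu3b3. The 10 genes therefore give 7 distinct signals. Rnu1a1 shares its 4 values with 6 other clusters and Rn5s with 30, so these signals may come from any of those copies. Levels of single genes are not compared with each other, since probes differ.

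The 7 signals shared a pattern: each was lower on the astragalus and electro-acupuncture arrays than on both the cisplatin and the control array. Against cisplatin the median log2 difference was -2.45 for astragalus and -2.46 for electro-acupuncture, and against control it was -2.92 and -3.01. All 7 signals were at least 2-fold lower in each of these 4 comparisons, as were 1.92% (astragalus) and 2.59% (electro-acupuncture) of all genes against cisplatin and 2.68% and 3.11% against control. Cisplatin itself lay near control for Rn5s and Rmrp, below it for the U1 genes and far below it for Rnu5g, and above it for the U3 genes.

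**Figure D1:**
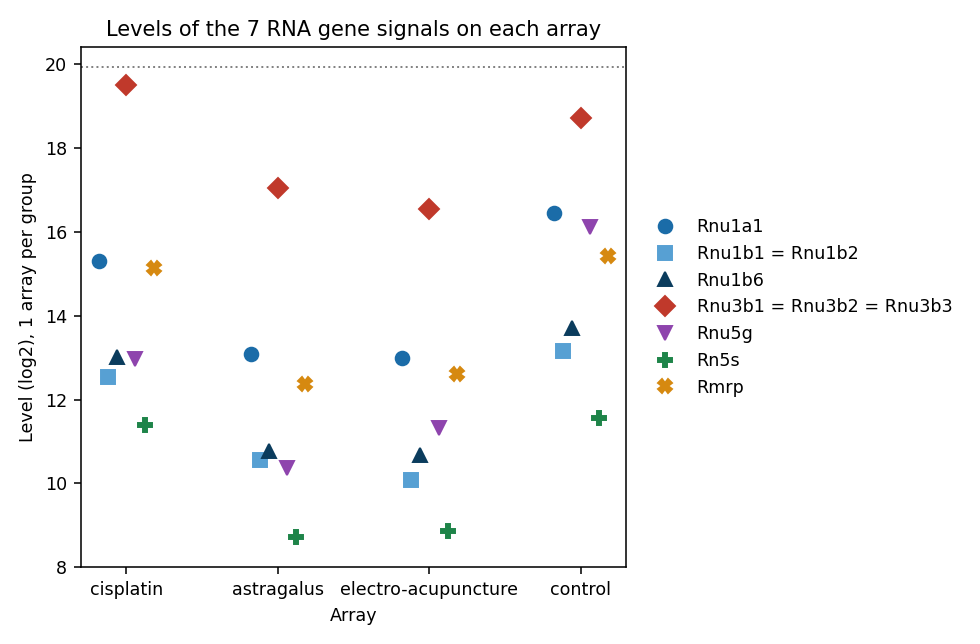
Level (log2) of each of the 7 signals on the cisplatin, astragalus, electro-acupuncture and control arrays, 1 point per signal and array, with the ceiling of 19.93 as a dotted line. Every signal is lower on the astragalus and electro-acupuncture arrays than on the other two, and Rnu5g is the signal whose cisplatin point lies far below its control point.

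Among the U1 genes, Rnu1a1 had levels of 15.30 in cisplatin, 13.09 in astragalus, 12.99 in electro-acupuncture and 16.45 in control. The signal of Rnu1b1 and Rnu1b2 was at 12.54 in cisplatin, 10.57 in astragalus, 10.08 in electro-acupuncture and 13.15 in control. For Rnu1b6 the levels were 13.01 in cisplatin, 10.78 in astragalus, 10.69 in electro-acupuncture and 13.70 in control. The order of the arrays was the same in the 3 U1 signals, with control highest, then cisplatin, astragalus and electro-acupuncture. For Rnu1a1 and Rnu1b6 the order of the last pair turned under other scalings, with astragalus minus electro-acupuncture at -0.20 for Rnu1a1 and -0.22 for Rnu1b6 after removal of a loess trend.

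The U1 signals were lower in cisplatin than in control by differing amounts. The log2 difference was -1.15 for Rnu1a1 (2.22-fold lower), -0.69 for Rnu1b6 and -0.61 for Rnu1b1 and Rnu1b2. In astragalus they were 4.63-fold (Rnu1a1), 3.92-fold (Rnu1b1 and Rnu1b2) and 4.69-fold (Rnu1b6) lower than in cisplatin. In electro-acupuncture the folds below cisplatin were 4.96, 5.50 and 4.99 in the same gene order. Against control, Rnu1a1 was 10.3-fold lower in astragalus and 11.0-fold lower in electro-acupuncture.

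The U3 signal of Rnu3b1, Rnu3b2 and Rnu3b3 was at 19.50 in cisplatin, 17.05 in astragalus, 16.55 in electro-acupuncture and 18.71 in control. It was the only signal of the 7 that was higher in cisplatin than in control, by 0.79 on the log2 scale (1.73-fold). Its cisplatin level lies close under the ceiling of 19.93, above which the array values do not go. It was 5.46-fold lower in astragalus and 7.73-fold lower in electro-acupuncture than in cisplatin, and 3.16-fold and 4.47-fold lower than in control.

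A closely related U3 gene that is not among the 10, Rnu3b4, had levels of 18.53 in cisplatin, 16.64 in astragalus, 16.18 in electro-acupuncture and 18.09 in control. Its differences from cisplatin were -1.89 in astragalus and -2.35 in electro-acupuncture, and in its much dimmer other cluster they were -1.18 and -1.09. Rnu3a, another U3 gene, was at or next to the ceiling on every array (19.93, 19.88, 19.93 and 19.93 in the same array order), so its differences are not measurable there. Its other cluster was at 19.67 in cisplatin, 18.70 in astragalus, 19.01 in electro-acupuncture and 19.43 in control.

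The U5 gene Rnu5g was at 12.96 in cisplatin, 10.37 in astragalus, 11.32 in electro-acupuncture and 16.12 in control. Its control level stood apart from the other 3 arrays, and the cisplatin array was 8.94-fold lower than control. The log2 difference from control was -5.75 in astragalus (53.8-fold lower) and -4.80 in electro-acupuncture (27.9-fold lower). Against cisplatin the differences were -2.59 in astragalus and -1.64 in electro-acupuncture. Of the 7 signals this one differed most between both treatments, by -0.95 in astragalus minus electro-acupuncture.

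Rn5s had levels of 11.40 in cisplatin, 8.72 in astragalus, 8.86 in electro-acupuncture and 11.56 in control. Rmrp had levels of 15.15 in cisplatin, 12.38 in astragalus, 12.61 in electro-acupuncture and 15.42 in control. For both RNAs the cisplatin and control levels lay close together, with differences of -0.16 for Rn5s and -0.27 for Rmrp. Rn5s was 6.41-fold lower in astragalus and 5.82-fold lower in electro-acupuncture than in cisplatin, and Rmrp was 6.82-fold and 5.82-fold lower.

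**Figure D2:**
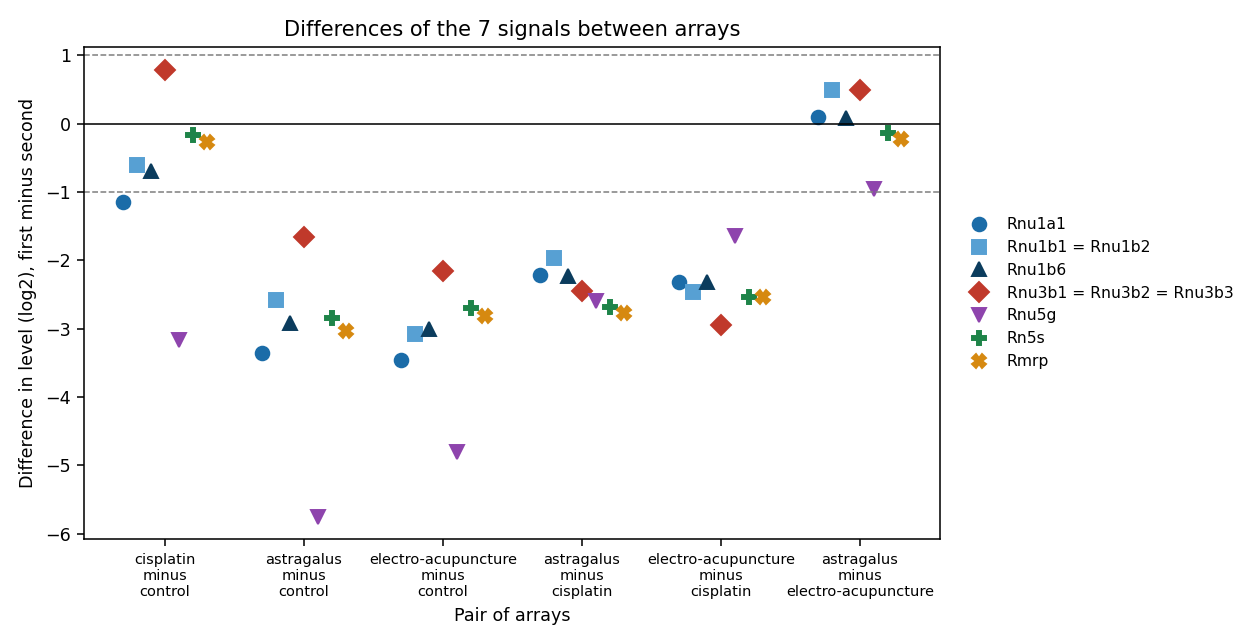
Difference in level (log2) of each of the 7 signals between arrays, the first-named array minus the second, with dashed lines at 2-fold in either direction. In the 4 middle comparisons every signal lies below the lower line, while cisplatin minus control spreads from -3.16 (Rnu5g) to 0.79 (the U3 genes).

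The profiles of Rn5s and Rmrp over the 4 arrays were almost the same. The distance between 2 profiles was taken as the Euclidean distance of the 4 log2 levels after subtracting each signal's own mean. It was 0.14 for Rn5s and Rmrp, the smallest of the pairs among the 7 signals. Among the U1 signals it ran from 0.31 (Rnu1b1 and Rnu1b6) to 0.57 (Rnu1a1 and Rnu1b1). Rnu5g was the least like the others, with distances from 1.82 (to Rnu1a1) to 3.28 (to the U3 signal).

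How often a gene was called by size alone, over all genes tested, gives the background for these counts. In cisplatin minus control 2 of 7 signals, Rnu1a1 and Rnu5g, were at least 2-fold lower, against 0.965% of 17208 genes and 6.14% of 586 snRNA genes. No signal was at least 2-fold higher there, against 2.01% of genes, and none was in any other comparison. Of the snRNA genes, the type that holds the U1, U3 and U5 genes, 37.0% were at least 2-fold lower in astragalus minus control, 48.5% in electro-acupuncture minus control, 25.9% in astragalus minus cisplatin and 44.5% in electro-acupuncture minus cisplatin, where all 7 signals were. Counted over 515 distinct snRNA signals, as the 7 are, these shares were 29.5%, 41.6%, 17.1% and 37.3%. Rn5s and Rmrp are not of this type. Over 21 distinct rRNA signals, Rn5s among them, the shares were 71.4%, 76.2%, 76.2% and 76.2% in the same order. Since these differences helped to choose the genes, nothing is read from the counts. The comparisons that share the cisplatin array, the control array or a treatment array are not independent of each other.

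Between astragalus and electro-acupuncture none of the 7 signals reached 2-fold, where 0.872% of genes were at least 2-fold lower (1.19% of snRNA genes) and 0.657% higher. The log2 differences of astragalus minus electro-acupuncture were 0.10 for Rnu1a1, 0.49 for Rnu1b1 and Rnu1b2, 0.09 for Rnu1b6 and 0.50 for the U3 signal. They were -0.95 for Rnu5g, -0.14 for Rn5s and -0.23 for Rmrp. The median was 0.09, and it changed sign with the scaling (-0.20 after quantile normalization, -0.22 after removal of a loess trend and -0.12 relative to the median snRNA gene).

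A repeat within the same arrays was available for 9 of the 10 genes, which have another cluster of their own. Rnu3b1, Rnu3b2 and Rnu3b3 had equal values there too and give a single signal. Whether both clusters of a gene share probes was not checked, so a repeat is not taken as an independent measurement. For Rnu1a1 the other cluster was at 15.33 in cisplatin, 13.12 in astragalus, 12.91 in electro-acupuncture and 16.46 in control, within 0.1 of the first on each array. The other cluster of Rnu5g had the same 4 values as the first and so adds nothing. For Rn5s the other cluster was at 10.85 in cisplatin, 8.21 in astragalus, 8.35 in electro-acupuncture and 10.91 in control, and its differences from cisplatin were -2.64 and -2.50. Rnu1b6 repeated with differences of -2.15 in astragalus and -2.20 in electro-acupuncture against cisplatin, and Rnu1b1 with -1.98 and -2.27. The values of the other Rn5s cluster are shared with 31 further clusters, and those of the other Rnu1b6 cluster with 2.

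For Rnu1b2 and the U3 genes the other clusters differed from the first. As with the other clusters of Rnu1a1 and Rnu1b1, the values of the other Rnu1b2 cluster are shared by no further cluster. It was at 7.74 in cisplatin, 7.02 in astragalus, 7.24 in electro-acupuncture and 8.12 in control. Its differences from cisplatin were -0.72 in astragalus and -0.50 in electro-acupuncture, both under 2-fold, and those from control were -1.10 and -0.88. The other U3 cluster was at 18.70 in cisplatin, 17.27 in astragalus, 16.73 in electro-acupuncture and 18.56 in control. There the difference of cisplatin from control was 0.14, and the differences from cisplatin were -1.43 in astragalus and -1.97 in electro-acupuncture. The higher U3 level in cisplatin was thus much smaller in this cluster than in the brighter one.

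Other genes of the same RNA types were also lower on the astragalus and electro-acupuncture arrays, while the medians of protein-coding genes lay close to 0. The 578 other snRNA genes had a median log2 difference of -0.64 in astragalus minus cisplatin and -0.80 in electro-acupuncture minus cisplatin, and the 60 other rRNA genes had -2.68 and -2.54. Many of these rRNA genes are 5S copies with the same 4 values as Rn5s, and these medians equal its own differences. Over 21 distinct rRNA signals, Rn5s among them, the medians were -1.64 and -1.81. The 11236 protein-coding genes had medians of 0.07 and 0.02, the 548 snoRNA genes -0.14 and 0.09, and the 534 miRNA genes -0.06 and 0.22. The 27 guide RNA genes had medians of -0.36 and -0.51, with 5 and 7 of the 27 at least 2-fold lower, where 1.92% and 2.59% of all genes were. In cisplatin minus control the medians were -0.09 for the other snRNA genes and -0.16 for the other rRNA genes.

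**Figure D3:**
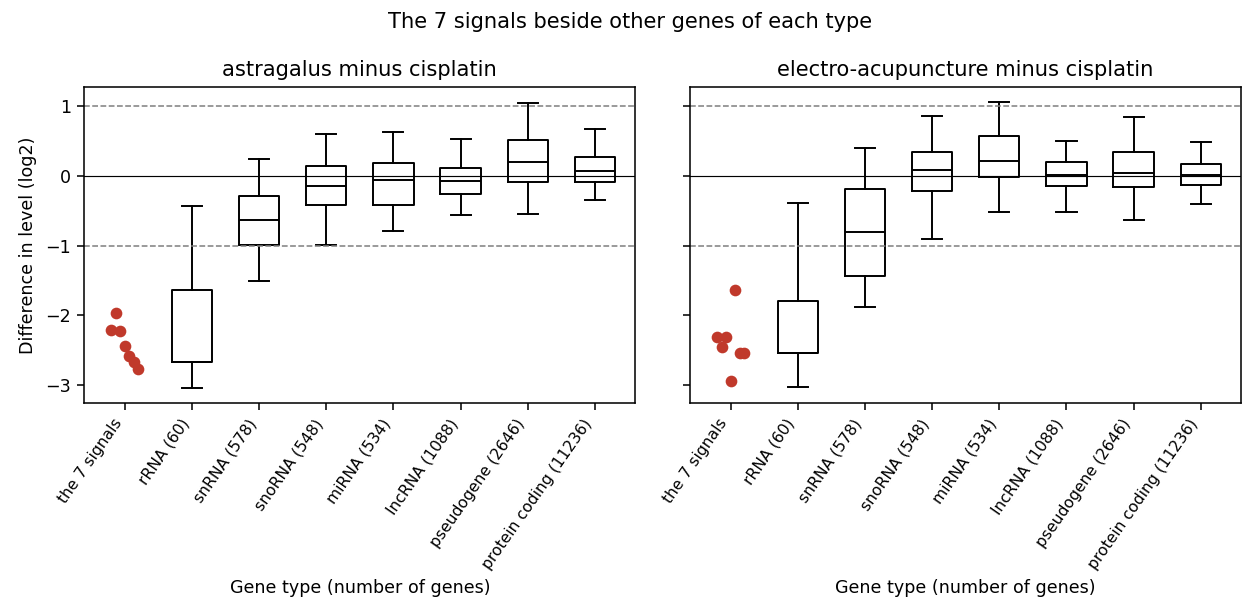
Difference in level (log2) from the cisplatin array for astragalus and electro-acupuncture, for the 7 signals (points) and for the other genes of 7 RefSeq gene types (boxes from the 25th to the 75th percentile with the median, whiskers from the 5th to the 95th percentile). The 7 signals lie with the rRNA genes and in the lower range of the snRNA genes, and the boxes of the other types drawn lie about 0. Many of the 60 rRNA genes drawn are 5S copies with the same values as Rn5s. Over 21 distinct rRNA signals, Rn5s among them, the medians were -1.64 (astragalus) and -1.81 (electro-acupuncture).

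Genes named as 5S copies numbered 70 above the floor and gave 32 distinct signals, Rn5s among them. Of these, 19 were at least 2-fold lower in astragalus than in cisplatin and 18 in electro-acupuncture, where 1.92% and 2.59% of all genes were. Their medians were -1.37 and -1.26, and none was at least 2-fold higher. Against control their medians were -1.13 for astragalus and -1.28 for electro-acupuncture. In cisplatin minus control the median was -0.01, with none at least 2-fold lower and 2 at least 2-fold higher, where 0.965% and 2.01% of all genes were. This group was formed after its values were seen, so nothing is read from the counts.

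The other snRNA signals were also grouped by their mean array level, which reflects the probes as well as the RNA. In electro-acupuncture minus cisplatin the median was -0.20 for 162 distinct signals with a mean level under 6, -0.49 for 155 between 6 and 8, -1.11 for 102 between 8 and 10 and -1.54 for 92 at 10 or more. In astragalus minus cisplatin the medians were -0.32, -0.51, -0.67 and -0.89 in the same bins. The U1, U3 and U5 signals all belong to the bin at 10 or more. In that bin 85 of 92 other snRNA signals were at least 2-fold lower in electro-acupuncture than in cisplatin and 40 of 92 in astragalus. Over all genes, of any level, the shares were 2.59% and 1.92% in the same order. The medians were thus lower in the brighter bins, and the part of probe and signal level in this was not tested.

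**Figure D4:**
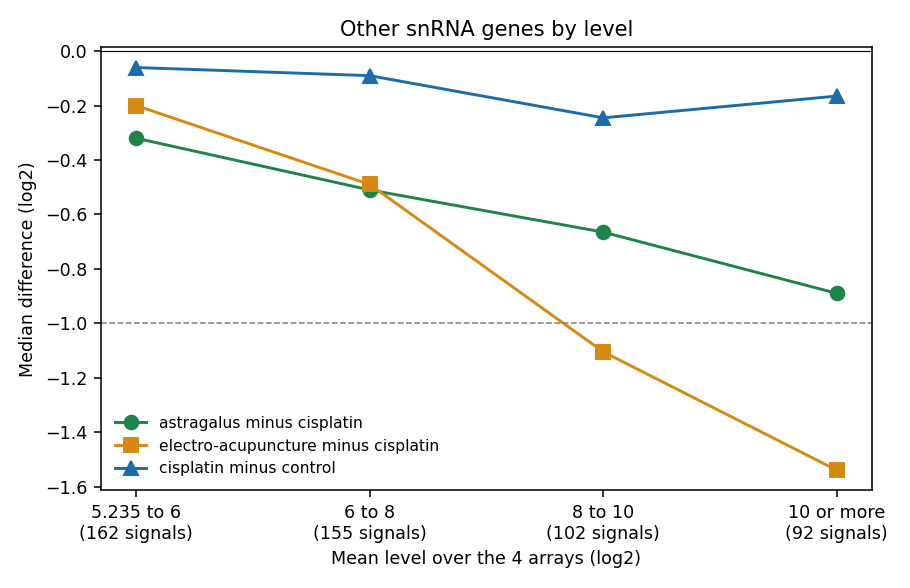
Median difference in level (log2) of the other snRNA signals, grouped by their mean level over the 4 arrays, with the number of signals in each bin. The medians of astragalus minus cisplatin and electro-acupuncture minus cisplatin are lower in each brighter bin and reach -0.89 and -1.54, and those of cisplatin minus control stay between -0.25 and -0.06.

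Length did not order the differences in the same way. The 10 genes are annotated at 116 to 275 bases in RefSeq. Over the other structural RNA genes, of all types together, the median of electro-acupuncture minus cisplatin was 0.08 for 105 signals under 100 bases, -0.71 for 437 from 100 to under 120 bases and 0.08 for 457 from 120 to under 150 bases. It was -0.43 for 89 from 150 to under 200 bases and -0.77 for 18 from 200 to 400 bases. In astragalus minus cisplatin the medians were -0.13, -0.57, -0.15, -0.51 and -0.63 in the same order. RNA type and length go together in these bins and cannot be told apart.

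A stricter count asked for genes whose cisplatin and control levels both lay at least 2-fold above both the astragalus and the electro-acupuncture level. This was so for 208 of 17208 genes (1.21%) and for 115 of 586 snRNA genes (19.6%). All 10 genes described here are among the 208, and since their levels chose them nothing is read from this. The 208 also hold 52 genes of type rRNA (Rn5s included), 24 pseudogenes, 10 snoRNA genes and 1 protein-coding gene, Mcts2. Copies with equal values are counted as separate genes here, and many of the 52 have the same values as Rn5s. No miRNA gene met the count.

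Other named structural RNAs were lower on these arrays in part. Of a list of such RNAs, 12 genes had a cluster of their own above the floor, among them Rn7sk, Rn7s1 and Rn7s2, which were at the ceiling on all 4 arrays and could not differ. In astragalus minus cisplatin 4 of the 12 were at least 2-fold lower, in electro-acupuncture minus cisplatin 3, in astragalus minus control 6, in electro-acupuncture minus control 4 and in cisplatin minus control 1. Over all genes these shares were 1.92%, 2.59%, 2.68%, 3.11% and 0.965% in the same order. None was at least 2-fold higher in these comparisons.

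Rpph1, the RNA of RNase P and the close relative of Rmrp, was at 11.30 in cisplatin, 9.48 in astragalus, 9.66 in electro-acupuncture and 11.12 in control. That is 3.53-fold lower in astragalus and 3.12-fold lower in electro-acupuncture than in cisplatin, a smaller difference than that of Rmrp in both. Rny3, a Y RNA bound by the Ro protein, was at 10.34 in cisplatin, 8.97 in astragalus, 9.66 in electro-acupuncture and 10.24 in control. Rn4.5s, a small RNA of rodents made by RNA polymerase III, was at 17.12 in cisplatin, 15.82 in astragalus, 16.73 in electro-acupuncture and 16.86 in control. For these last 2 RNAs only the astragalus array was at least 2-fold below cisplatin.

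Of the other spliceosomal RNAs, Rnu6, the catalytic U6 RNA, was at 13.04 in cisplatin, 11.98 in astragalus, 11.26 in electro-acupuncture and 13.11 in control. Its other cluster was at 11.91 in cisplatin, 10.67 in astragalus, 11.60 in electro-acupuncture and 11.47 in control, so the low electro-acupuncture level was seen in 1 cluster of U6 only. Rnu2-10 (U2, which pairs with the branch point) was at 10.23 in cisplatin, 9.67 in astragalus, 9.23 in electro-acupuncture and 10.94 in control. Its difference in electro-acupuncture minus cisplatin lay exactly at the 2-fold limit of the count, and in its other cluster, at 9.56 in cisplatin, 9.11 in astragalus, 8.87 in electro-acupuncture and 10.47 in control, it was -0.69.

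Of the RNAs of the minor spliceosome, Rnu11 (U11) was at 9.09 in cisplatin, 8.55 in astragalus, 9.20 in electro-acupuncture and 10.71 in control. Like Rnu5g it was lower on the other 3 arrays than in control, by 3.07-fold in cisplatin, 4.47-fold in astragalus and 2.85-fold in electro-acupuncture, but against cisplatin its differences were -0.54 in astragalus and 0.11 in electro-acupuncture. Rnu12 (U12) was at 7.03 in cisplatin, 7.32 in astragalus, 7.05 in electro-acupuncture and 7.26 in control, and Terc, the telomerase RNA, was at 6.00, 6.06, 6.21 and 6.11 in the same order. Neither reached 2-fold in any comparison. Rn7sk, Rn7s1, Rn7s2 and Rn28s1 were at the ceiling on all 4 arrays, so no difference can be measured for them.

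The genes of proteins that bind, make or assemble these RNAs were described by list. Over 7 protein lists, 98 of 114 listed genes were above the floor. None of the 98 was at least 2-fold lower in any of the 6 comparisons, which is near the background: of 11236 protein-coding genes 24 were at least 2-fold lower in astragalus minus cisplatin and 35 in electro-acupuncture minus cisplatin. None was at least 2-fold higher against cisplatin either, where 104 of the 11236 protein-coding genes were in astragalus and 35 in electro-acupuncture. Over all genes, 2.00% and 1.32% were. Against control 4 of the 98 were at least 2-fold higher in astragalus, where 427 of the 11236 protein-coding genes were. In electro-acupuncture 5 of the 98 were, where 306 of the 11236 were. Over all genes, pseudogenes included, 6.13% and 4.16% were. The medians of the 98 were 0.15 in astragalus minus cisplatin and 0.08 in electro-acupuncture minus cisplatin, beside 0.06 and 0.02 over all genes tested.

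**Figure D5:**
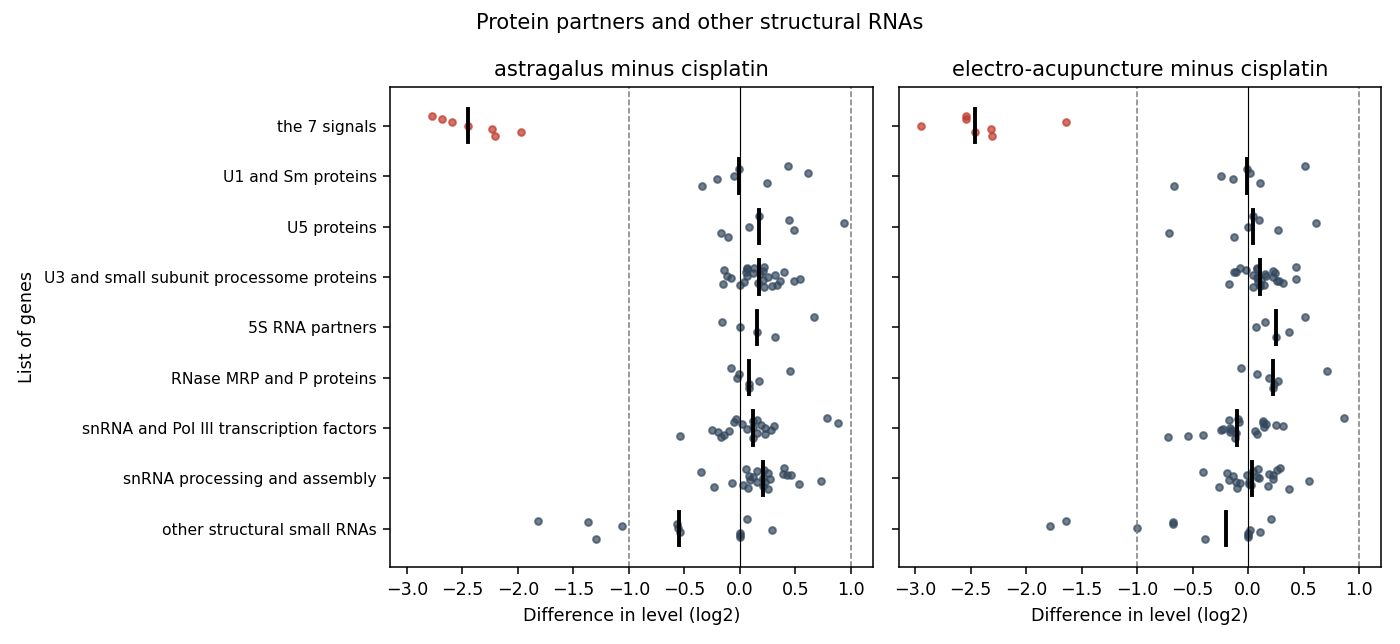
Difference in level (log2) from the cisplatin array for the 7 signals and for the genes of each list (points), with the list's median as a bar and dashed lines at 2-fold. The protein lists lie within 2-fold of cisplatin on both arrays, while the 7 signals lie between -2.95 and -1.64.

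Proteins of the U1 particle and the Sm ring, which the U1 and U5 RNAs carry, had a median of -0.01 in both comparisons with cisplatin, over 7 genes. Snrpg, a protein of the Sm ring, was at 17.46 in cisplatin, 17.89 in astragalus, 17.97 in electro-acupuncture and 16.80 in control, which is 2.13-fold and 2.25-fold above control on the astragalus and electro-acupuncture arrays. The 7 U5 proteins had medians of 0.17 in astragalus and 0.04 in electro-acupuncture against cisplatin. Prpf8, the large protein at the core of the spliceosome that contacts U5, was at 10.51 in cisplatin, 11.45 in astragalus, 11.12 in electro-acupuncture and 10.16 in control. Prpf8 was thus above its control level on all 3 arrays, and Rnu5g was below its own. This was not particular to Prpf8. The number of the 7 U5 proteins above control was 6 for cisplatin, 6 for astragalus and 5 for electro-acupuncture. The number below was 1, 1 and 2 in the same order. Cd2bp2, also a U5 protein, was below control each time, by -0.05, -0.16 and -0.18. All of these differences use the same control array and are not independent.

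The 26 measured proteins of the U3 particle and the small subunit processome had medians of 0.17 in astragalus and 0.11 in electro-acupuncture against cisplatin. Against control 25 of the 26 were higher in each of cisplatin, astragalus and electro-acupuncture, with medians of 0.27, 0.47 and 0.34. Over all genes tested the medians were 0.01, 0.05 and 0.04 in the same order. These comparisons share the control array and are not independent of each other. Utp4, a processome protein, was 2.25-fold higher in astragalus and 2.27-fold higher in electro-acupuncture than in control, and Wdr75 was 2.01-fold higher in electro-acupuncture. Of 5 measured partners of 5S RNA, Rpf2, which helps to place 5S RNA in the large subunit, was 2.11-fold higher in astragalus and 2.46-fold higher in electro-acupuncture than in control.

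For the RNase MRP and P proteins, 7 of 10 were above the floor, with medians of 0.08 in astragalus and 0.22 in electro-acupuncture against cisplatin. Rpp30, a subunit of both enzymes, was at 7.72 in cisplatin, 8.17 in astragalus, 8.43 in electro-acupuncture and 7.40 in control. The 22 measured SNAPc and RNA polymerase III factors had medians of 0.12 and -0.10 against cisplatin, and the 24 measured genes of snRNA processing and assembly (the Integrator and SMN complexes and export factors) had 0.21 and 0.04. Neither of these lists had a gene past 2-fold in any comparison.

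The genes with the nearest profile over the 4 arrays to each class were also listed. The 10 genes themselves and predicted genes with Gm or Rik symbols, some of which lay nearer, were left out. Copies with values equal to Rn5s were not left out, so where they appear the neighbour is the Rn5s signal itself. For Rmrp the nearest, at a distance of 0.14, were such copies. They are given as n-R5s100, n-R5s103 and n-R5s104, the first by symbol of a longer tie, and are 1 signal. For Rnu1a1 the nearest by this rule were the same copies at 0.73, and for Rnu5g they came second. For the U3 signal they were Rnu3b4 at 0.48, Snord89 at 0.54 and n-R5s106 at 0.55. For Rnu5g the nearest by this rule was Snord17 at 1.42, at 14.04 in cisplatin, 11.63 in astragalus, 12.74 in electro-acupuncture and 15.76 in control, followed by n-R5s100 and n-R5s103 at 2.42. With 4 arrays such a distance describes these arrays only.

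The tissue label was checked against markers. All 11 measured marrow markers, from Mpo and Ngp of granulocytes to Alas2 of red cells and Ebf1 of B cells, were above the floor, with median levels of 12.8 in cisplatin, 13.8 in astragalus, 13.3 in electro-acupuncture and 11.7 in control. Skeletal muscle markers were near or under the floor of 5.235, with medians of 5.75, 5.40, 5.55 and 5.77. Platelet markers had medians of 17.9, 18.1, 18.1 and 15.7 and the bone markers Bglap and Col1a1 medians of 11.4, 9.87, 8.85 and 7.92 in the same order. The marrow median is the level of Mpo, and the marrow markers did not share an order of the arrays. Mpo, Elane, Ctsg and Alas2 were lowest in control, Camp and Ltf were lowest in cisplatin, and Ngp was level. S100a8 was at the ceiling of 19.93 on every array and could not differ. The B lineage markers Cd79a, Vpreb1 and Ebf1 were highest in control. The part of cell makeup in the lower RNA levels was not tested. In pooled marrow, fewer cells of a type and less RNA per cell cannot be told apart.

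Over all 65956 clusters the arrays had medians of 5.26 in cisplatin, 5.15 in astragalus, 5.31 in electro-acupuncture and 5.27 in control. The median over all genes tested lay between 0.01 and 0.06 in the 6 comparisons, and centring each array on its median moved it to 0.17 in astragalus minus control and astragalus minus cisplatin and to 0.22 in astragalus minus electro-acupuncture.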

How the data were processed

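Bone marrow RNA was measured on 4 arrays, 1 per group, with groups taken from the labels. The deposited values are log2 levels per transcript cluster, made with Affymetrix Expression Console per the submitters' processing notes. The sources used here give no version, summary method or genome build. The log2 scale was read from the values, which end at a ceiling of 19.93. Of 65956 clusters, 31258 carried 1 gene in the platform's gene table after symbols were updated through RefSeq (GRCm38.p6 names), 1492 carried several and were not used to name a gene, and the others are unnamed here. Each gene was read from its highest-mean cluster, and genes with a mean of at least 5.235, the median of all cluster means, were tested (17208). Differences are between 2 arrays, counted from a log2 difference of 1 in either direction, with no test.

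The members and lists were chosen with earlier results of these data known. Genes named are the 10 members, list genes at least 2-fold different (at most 3 per list and comparison), and the 3 named genes nearest in profile to the brightest signal of each class. Other genes named with values, namely Rnu3a, Rnu3b4, Rnu12, Terc, Mcts2 and those at the ceiling, were chosen after their values were seen, as were the bins by level and length, the group of 5S copies and the stricter count over both pairs of arrays. In all, 9 alternatives were run. The steps were tested on simulated data, with Python 3.11.15, pandas 2.3.3 and statsmodels 0.14.6 (lowess span 0.3).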

Additional observations from a re-analysis of the deposited data

How the results depend on the processing

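All 7 signals stayed at least 2-fold lower in astragalus and electro-acupuncture, against cisplatin and against control, under quantile normalization, loess and median centring. The other floors leave their differences as they are, since all 7 lie above them. Relative to the median snRNA gene, 6 of 7 were in astragalus minus control (the U3 signal was at -0.89) and in electro-acupuncture minus cisplatin (Rnu5g was at -0.82). With the next highest clusters, Rmrp having none, 6 of 7 were in 3 of these comparisons, Rnu1b2 being the exception. Their medians over the 9 alternatives ran from -2.76 to -1.81 in astragalus minus cisplatin and from -2.58 to -1.64 in electro-acupuncture minus cisplatin. In astragalus minus electro-acupuncture 1 signal, Rnu5g, was at least 2-fold lower, at -1.28 after quantile normalization, -1.26 after loess and -1.16 relative to the median snRNA gene. In cisplatin minus control Rnu1b6 reached -1.07 after quantile normalization. The share of snRNA genes at least 2-fold lower in astragalus minus cisplatin was 11.6% with arrays centred on their median, against 25.9% as deposited. Without a floor, which adds dim genes, the shares were 4.05% in cisplatin minus control, 32.3% in electro-acupuncture minus control and 29.5% in electro-acupuncture minus cisplatin. No paired analysis was possible because each group has 1 array, and no array could be left out. Signals near the ceiling, U3 in cisplatin among them, have little range above them.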

Other observations

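Among the 208 genes that were at least 2-fold higher on both the cisplatin and the control array than on both others, the snoRNA genes with a name of their own were Snord17, Snord49b, Snord82, Snord89 and Snord118, the U8 RNA of large subunit processing. Snord118 was at 6.82 in cisplatin, 5.75 in astragalus, 5.80 in electro-acupuncture and 7.16 in control. Snord82 was at 11.76, 10.40, 10.24 and 12.03 in the same order. Scarna17, a guide RNA gene, was at 12.97, 10.87, 11.39 and 12.40. Mcts2, the single protein-coding gene among them, was at 8.92, 7.74, 7.73 and 9.13. These genes were chosen after their values were seen and are given as values only.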
